A study of Mus musculus with 12 samples.

Results

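White adipocytes cultured from ATF7 knockout mice were compared with white adipocytes cultured from wild-type (WT) mice. The 4 libraries of this comparison, of 12 in the series, were chosen by their labels: 2 WT and 2 labelled ATF7KO, all made from preadipocytes of inguinal white fat of C57BL/6 mice that were differentiated without rosiglitazone. Both genotypes shared the strain, the depot and the absence of the drug. The other libraries were 4 beige cultures of the same 2 genotypes, made with rosiglitazone, an agonist of the nuclear receptor PPARγ, and 4 libraries of the mouse mesenchymal cell line C3H10T1/2, which were not used here. How the Atf7 allele was made, the age of the mice and the number of animals or cultures behind a library are all not given in the sources used here. p-values therefore measure only the spread between libraries of the same group, which may be technical. This spread was pooled over the 8 white and beige primary libraries, so the beige cultures also shape the SEs and p-values of the white comparison. Expression was measured by RNA sequencing after depletion of ribosomal RNA and is given in FPKM, fragments scaled to transcript length and to the size of the library. Of 24888 entries per library, 10939 reached 1 FPKM in at least 2 of the 4 white libraries. A scarce gene can pass this filter through the libraries of 1 genotype alone, the one in which it is higher. Of these, 14 were listed at exactly 0 in both libraries of one genotype and are treated apart, and 10925 were tested.

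ATF7 is a basic leucine zipper transcription factor of the ATF2 group. It binds the cyclic AMP response element and is known as a repressor that recruits histone H3 lysine 9 methyltransferases and is released from chromatin when stress kinases phosphorylate it. White adipocytes take up fatty acids, make new ones from glucose and store both as triglyceride in lipid droplets, and they secrete hormones such as adiponectin and leptin. Fat tissue also holds macrophages, and no step that separates them from preadipocytes is described in the labels.

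The targeted gene was not called between the genotypes. Atf7 (chromosome 15, 102525946 to 102625464, mm10) had 9.1 and 7.1 FPKM in WT against 6.88 and 7.73 FPKM with the KO label (log2 difference −0.13, SE 0.12, adjusted p = 0.6). The ranges of both genotypes overlap. A single FPKM per gene is blind to which exons gave the reads. A deletion of part of the gene is therefore not checked, and each direction below rests on the labels. Of 26 tested relatives of ATF2 and CREB, and of 19 tested genes of H3K9 methylation, 0 were called in either direction, with medians of 0.04 and 0.05 (0.06 and 0.09, and 0.04 and 0.12, as the lowest and highest with 1 library left out).

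The libraries were adipocyte cultures by their markers. Adiponectin (Adipoq) stood at 326 and 353 FPKM in WT against 274 and 281 FPKM with the KO label, and the fatty acid binding protein Fabp4 at 2497 and 3055 against 1940.2 and 1987 FPKM. Ucp1, the uncoupling protein that marks brown and beige fat, was listed at 0 in all 4. Macrophage markers were present in every library, while of 26 matched markers of T, B, NK and mast cells and neutrophils 12 were listed at 0 in all 4 and 2 were tested, and of the erythroid markers 0 passed the filter. The libraries held 10652 to 10877 entries at 1 FPKM or more, with 10654 and 10652 in WT and 10846 and 10877 in the KO-labelled libraries, and small RNA genes took 28.7 to 30.2% of the summed FPKM. The absolute depth is unknown. Steps among the low values put the depth of WT replicate 2 and of KO-labelled replicates 1 and 2 at 0.883, 1.17 and 0.93 of that of WT replicate 1. Pearson's r across entries was 0.978 between the WT replicates and 0.982 between the KO-labelled replicates, and 0.965 to 0.979 between genotypes. WT replicate 1 was closer to KO-labelled replicate 1 (0.979) than to WT replicate 2. WT replicate 2 had the lowest values, 0.967 and 0.965 with KO-labelled replicates 1 and 2.

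In the 4 white libraries, 162 entries were higher and 77 lower in KO-labelled than in WT cultures (limma on log2(FPKM + 1) over the 8 primary libraries, Benjamini-Hochberg adjusted p under 0.05), which is 1.48% and 0.705% of all entries tested. Differences below are KO-labelled minus WT on this log2 scale, on which the added 1 shrinks the change of scarce genes. In 3542 entries (32.4%) both KO-labelled values lay above both WT values, and in 2325 (21.3%) both lay below. All 239 called entries belong to one of these groups. Each list count below has these shares, with 2.19% of all entries called, as its background. The median difference over all entries was 0.03. Of the entries called higher, 17 rose by at least 1 on the log2 scale, and of those called lower 9 fell by at least 1. The calls depend on the libraries in the fit: they numbered 32 higher (0.293%) and 16 lower (0.146%) with the 4 white libraries alone, 254 and 144 without WT replicate 1, 20 and 14 without WT replicate 2, 8 and 14 without KO-labelled replicate 1, and 2 and 10 without KO-labelled replicate 2. The split also moved with scaling, from 67.8% of calls higher to 50.8% with quantile normalization, 53.1% with median centring and 52.5% with a pseudocount of 0.1.

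**Figure D1:**
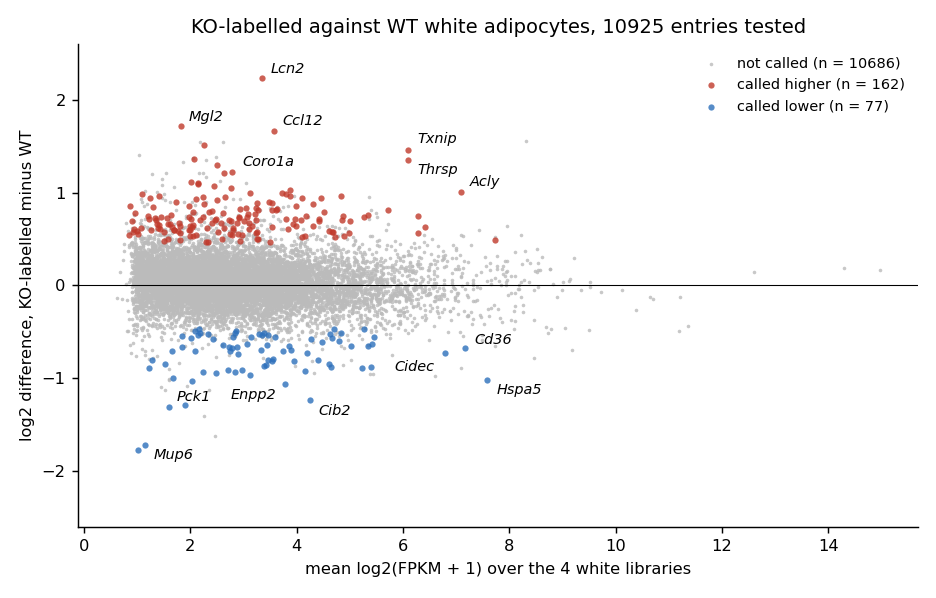
Each point is 1 of 10925 entries, placed by its mean log2(FPKM + 1) over the 4 white libraries and by its log2 difference, KO-labelled minus WT. The 162 entries called higher are red, the 77 called lower are blue and the rest grey. Lcn2, at 2.23, is the highest called point, and Mup6 and the predicted gene Gm2083 (not labelled) are the lowest called points.

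Txnip, Arrdc4 and Thrsp, genes known to respond to glucose, were among the largest rises. Txnip, which encodes thioredoxin-interacting protein, an arrestin that restrains glucose uptake, stood at 39.5 and 41.2 FPKM in WT against 109 and 115 FPKM with the KO label, with little spread inside either genotype (1.45, SE 0.10, adjusted p = 0.00045). It was called in all 15 settings in which it was tested. Arrdc4, its closest arrestin relative and likewise an inhibitor of glucose uptake, went from 1.77 and 2.29 FPKM to 5.59 and 5.42 (1.11, adjusted p = 0.0162). Thrsp, a nuclear protein tied to lipogenesis, had 35.4 and 49.7 FPKM in WT and 107 and 111 FPKM with the KO label (1.35, adjusted p = 0.00758).

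Acly and Acaca, enzymes that start fatty acid synthesis, rose as well. Acly, ATP citrate lyase, which makes cytosolic acetyl-CoA from citrate, had 95.4 and 93.5 FPKM in WT against 171 and 214 FPKM with the KO label (1.01, adjusted p = 0.011). Acaca, acetyl-CoA carboxylase 1, had 23.4 and 23.7 against 33.8 and 35 FPKM (0.53, adjusted p = 0.0322). Of 19 tested genes of de novo lipogenesis, 3 (Acaca, Acly and Thrsp) were called higher and 0 lower. KO-labelled values lay above WT in 11 and below in 3, and the median was 0.15 against −0.16 for the same genes in the beige cultures. The summed FPKM of the list went the other way, at 4671 and 4287 in WT and 3838 and 4112 in KO-labelled libraries. Further members were above WT without a call: fatty acid synthase (Fasn), with 304 and 336 FPKM in WT against 413 and 423 FPKM (adjusted p = 0.114), and the elongase Elovl6, with 8.18 and 9.52 FPKM in WT against 15.2 and 15.1 FPKM (adjusted p = 0.0872). The list was not uniform, since Scd1, the desaturase with the highest FPKM in it, stood at 3304 and 2862 in WT and 2195 and 2361 in KO-labelled libraries (adjusted p = 0.185), and Mlxipl, which encodes the glucose-sensing factor ChREBP, differed by 0.00 (adjusted p = 0.995) with overlapping values. The calls of this list numbered 2 without WT replicate 1, 1 without WT replicate 2, 1 without KO-labelled replicate 1 and 0 without KO-labelled replicate 2.

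Other enzymes of carbohydrate use were called one by one. Tkt, transketolase of the pentose phosphate pathway, rose from 61.2 and 64.3 FPKM to 86 and 100.3 (0.56, adjusted p = 0.0371), and Gys1, the glycogen synthase of muscle and fat, rose from 12 and 10.9 FPKM to 19.5 and 26.7 (0.94, adjusted p = 0.0301). Slc16a3, a monocarboxylate carrier that exports lactate, rose from 2.65 and 1.2 FPKM to 5.5 and 8.96 (1.51, adjusted p = 0.0371) and was the 1 call among 35 tested genes of glycolysis and the hypoxia response. In that list 15 members lay above and 1 below WT, with a median of 0.29 (−0.18 in beige). The summed FPKM of the list overlapped, at 1659 and 1462 in WT and 1580.3 and 2079.8 in KO-labelled libraries, with KO-labelled replicate 2 the highest. The median was 0.15 without WT replicate 2 and 0.14 without KO-labelled replicate 2, and the calls numbered 2 without WT replicate 1 and 0 without WT replicate 2 or KO-labelled replicate 1 or 2. The prolyl hydroxylase Egln3, at 2.31 and 1.84 against 4.8 and 9.48 FPKM, had a wide spread between the KO-labelled replicates and no call (adjusted p = 0.0715).

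The 250 bases before the RefSeq start of Txnip (GRCm38.p6, chr3:96557707-96557956, plus strand) hold a match to the carbohydrate response element. This motif is the letters CACGNG repeated after 5 further bases, shown in capitals. It is the only match among the 163 called genes with a RefSeq promoter, and the other called entries were not searched. This gene and motif were chosen after the values had been seen. The match begins 85 bases before the start. The motif, searched on both strands of the 300 bases from 250 before to 50 after each start, occurs in 0.108% of tested genes with a promoter and in 0.0487% of all 32851 promoters.
Txnip: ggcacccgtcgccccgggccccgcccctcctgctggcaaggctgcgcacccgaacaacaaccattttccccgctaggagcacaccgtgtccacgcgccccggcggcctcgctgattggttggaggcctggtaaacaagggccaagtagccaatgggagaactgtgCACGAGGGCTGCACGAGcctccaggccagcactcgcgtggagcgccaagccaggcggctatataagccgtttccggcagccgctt

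Of 19 tested genes of fatty acid uptake and binding, 5 were called lower and 0 higher. Cd36, the fatty acid translocase of the plasma membrane, stood at 177 and 185 FPKM in WT against 114 and 112 FPKM with the KO label (−0.67, adjusted p = 0.0301). Cav2, a caveolin, had 52.4 and 47.3 against 33.6 and 29.2 FPKM (−0.65), and Angptl4, a secreted inhibitor of lipoprotein lipase, had 35.1 and 31.5 against 19.5 and 23.8 FPKM (−0.60). The apolipoproteins Apoc2, which activates lipoprotein lipase, and Apoc4 were low in WT, at 2.58 and 3.14 and at 2.65 and 5.19 FPKM, and lower in KO-labelled libraries, at 1.27 and 1.03 and at 0.792 and 1.04 FPKM. In this list 12 members lay below WT and 2 above, and the median was −0.32 (0.04 in beige). Lipoprotein lipase itself (Lpl), at 824 and 879 against 620.4 and 596 FPKM, was not called (adjusted p = 0.127). The list's calls numbered 0 with the 4 white libraries alone, 3 without WT replicate 1 and 0 without WT replicate 2 or KO-labelled replicate 1 or 2, and its median with 1 library left out lay between −0.36 and −0.28.

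Of 17 tested droplet coat and lipase genes, 3 were called lower and 0 higher. Cidec, which enlarges droplets by fusing them, stood at 146 and 135 FPKM in WT against 88.2 and 81 FPKM with the KO label (−0.73, adjusted p = 0.0228). Plin4, a perilipin of white fat, had 40.0 and 39.6 against 23 and 26.8 FPKM (−0.66, adjusted p = 0.0336), and Fitm2, an ER protein that partitions triglyceride into droplets, had 23.9 and 29.3 against 17.3 and 16.6 FPKM (−0.61, adjusted p = 0.0482). In this list 10 lay below and 3 above WT (median −0.16). Plin1, the main perilipin of the adipocyte, was not called at 169 and 165 against 145 and 152 FPKM (adjusted p = 0.417). Pck1, the cytosolic PEP carboxykinase that supplies glycerol for triglyceride, fell from 4.3 and 5.33 FPKM to 1.7 and 1.99 (−1.03, adjusted p = 0.0281) and was the 1 call among 19 tested genes of triglyceride synthesis, whose median was 0.01 and changed sign with the setting. The droplet calls numbered 0 with the 4 white libraries alone, 2 without WT replicate 1 and 0 without WT replicate 2 or KO-labelled replicate 1 or 2.

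Over the 37 tested adipocyte core genes, 5 were called lower (Acvr1c, Cd36, Cidec, Pck1 and Plin4) and 2 higher (Acaca and Thrsp). KO-labelled values lay below WT in 25 and above in 5, with a median of −0.26 (−0.09 in beige). The summed FPKM of the core genes was 10991 and 11672 in WT and 8402 and 8793 in KO-labelled libraries. The macrophage marker sum moved the other way, as given below, and its part in the fall was not tested. Acvr1c encodes the activin receptor ALK7, which restrains lipolysis in fat, and had 14.2 and 14.7 against 7.89 and 7.74 FPKM (−0.81, adjusted p = 0.0147). Of the fixed regulators and hormones, Pparg (45.8 and 45 against 38 and 40.1 FPKM, adjusted p = 0.235), Cebpa (88.3 and 84.6 against 71.4 and 73.9 FPKM, adjusted p = 0.254) and leptin, Lep (7.52 and 8.26 against 6.77 and 6.59 FPKM, adjusted p = 0.269), were each lower in both KO-labelled libraries without a call. Cebpb, which acts earlier in differentiation, had overlapping values (adjusted p = 0.919). Of 27 tested adipogenic transcription factors, 0 were called, and their median was 0.12. The core calls in the lower direction numbered 11 with quantile normalization, 8 without small RNA genes, 2 with the 4 white libraries alone, 7 without WT replicate 1 and 0 without WT replicate 2 or KO-labelled replicate 1 or 2, while the median lay between −0.28 and −0.23 with 1 library left out.

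Tshr, the thyrotropin receptor, stood at 11.3 and 10.9 FPKM in WT against 4.81 and 5.62 FPKM with the KO label (−0.96, SE 0.11, adjusted p = 0.00744). Mc5r, a melanocortin receptor, fell from 7.33 and 8.76 FPKM to 4.75 and 2.97 (−0.92, adjusted p = 0.0371). The beta-3 adrenergic receptor Adrb3, at 30.6 and 42.9 against 22.1 and 22.6 FPKM, lay below WT without a call (adjusted p = 0.0678). Enpp2, which encodes autotaxin, the secreted enzyme that makes lysophosphatidic acid, fell from 16.9 and 21 FPKM to 8.16 and 8.81 (−1.07, adjusted p = 0.00744). Cib2, a calcium and integrin binding protein, fell from 26.4 and 29.9 FPKM to 11.5 and 11.2 (−1.24, adjusted p = 0.00272) and, with Txnip, Mup6 and Gm2083, is 1 of the 4 entries called in every setting in which it was tested.

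Bcat2, the mitochondrial enzyme that starts the breakdown of branched-chain amino acids, fell from 44.5 and 55.8 FPKM to 27.5 and 25.4 (−0.89, adjusted p = 0.0454), and was the 1 call among 24 tested genes of that pathway. Of these 24, 16 lay below WT and 0 above (median −0.22, and 0.12 in beige). Gpt, alanine aminotransferase, fell from 23.2 and 24 FPKM to 11.2 and 12.9 (−0.92, adjusted p = 0.0247). In peroxisomes, which shorten very long fatty acids, Abcd2, a transporter of these acids, fell from 11.9 and 14.5 FPKM to 6.77 and 6.78 (−0.86, adjusted p = 0.0202), and Acaa1b, a peroxisomal thiolase, was called as well (−0.79). These were the 2 calls among 31 tested peroxisomal genes (16 below WT, 2 above, median −0.20, and −0.12 without WT replicate 2). With the 4 white libraries alone, the calls numbered 1 for the peroxisomal list and 0 for branched-chain amino acid breakdown. Elovl4, which makes very long fatty acids, fell from 2.42 and 1.98 FPKM to 0.886 and 0.566 (−0.89, adjusted p = 0.0235).

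Of 76 tested mitochondrial ribosomal proteins 0 were called, with 39 below WT and 2 above (median −0.16). WT replicate 2 stood apart here: the list summed to 949.5 and 1127 in WT and 891 and 893 in KO-labelled libraries, and the median was −0.10 without it. The 59 tested nuclear-encoded respiratory chain genes likewise had 0 calls, a median of −0.10 and 0.02 without WT replicate 2. Of 31 proteasome subunits 0 were called, with 13 below WT and 0 above (median −0.18, and −0.05 without WT replicate 2). Thermogenic genes were low in these cultures: 12 passed the filter, 0 were called, and the median was −0.10 and changed sign when the filter was dropped or KO-labelled replicate 1 was left out. Ppargc1a, the coactivator of mitochondrial biogenesis, had 1.17 and 1.38 FPKM in WT against 1.15 and 1.51 FPKM. The 76 cytosolic ribosomal proteins, with a median of 0.01, also had 0 calls.

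Of 41 tested genes of the unfolded protein response and chaperones of the endoplasmic reticulum (ER), 4 were called lower and 0 higher. Hspa5, which encodes BiP, the main ER chaperone, stood at 225 and 329.8 FPKM in WT against 136 and 132 FPKM with the KO label (−1.02, SE 0.17, adjusted p = 0.0269). The WT replicates were far apart, and both exceeded the KO-labelled values. Manf, a secreted ER stress protein, fell from 28.8 and 35 FPKM to 16.8 and 17.7 (−0.84, adjusted p = 0.0235). Sdf2l1, a cofactor of BiP, fell from 12.8 and 14.1 FPKM to 8.11 and 6.52 (−0.80), and Dnajb9, a BiP co-chaperone, from 22.7 and 22.2 FPKM to 15.8 and 13.7 (−0.58). In the list 26 members lay below WT and 4 above, with a median of −0.24 (0.04 in beige). Hsp90b1, at 149 and 189 against 110.1 and 120.0 FPKM, and Xbp1, the transcription factor of the response, at 37.1 and 39.8 against 31 and 34 FPKM, lay below WT without a call (adjusted p = 0.0931 and 0.209). Members called numbered 9 with quantile normalization, 7 without small RNA genes, 0 with the 4 white libraries alone, 5 without WT replicate 1 and 0 without WT replicate 2 or KO-labelled replicate 1 or 2. The median with 1 library left out lay between −0.33 and −0.12.

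The promoter of Hspa5 is shown because it is the called gene of this list that holds the ER stress element, CCAAT and CCACG with 9 bases between them, marked in capitals and beginning 65 bases before the start (GRCm38.p6, chr2:34771840-34772089, plus strand, 250 bases). Of 30 tested members of the list with a RefSeq promoter, 8 (26.7%) hold this motif, against 0.180% of all tested genes with one. An AP-1 motif, TGANTCA, is present elsewhere in the same window and does not overlap it.
Hspa5: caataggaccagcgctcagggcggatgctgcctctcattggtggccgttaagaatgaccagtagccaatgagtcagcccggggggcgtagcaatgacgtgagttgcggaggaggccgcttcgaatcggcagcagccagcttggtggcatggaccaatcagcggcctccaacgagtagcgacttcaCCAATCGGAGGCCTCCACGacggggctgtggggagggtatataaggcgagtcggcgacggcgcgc

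The integrated stress response, which adjusts amino acid supply through ATF4, had 2 calls, both lower, among 30 tested genes. Cth, cystathionine gamma-lyase of cysteine synthesis, fell from 5.34 and 8.53 FPKM to 3.09 and 2.98 (−0.95, adjusted p = 0.0353), and Mthfd2, a mitochondrial enzyme of one-carbon metabolism, from 10.4 and 12.1 FPKM to 7.53 and 7.31 (−0.54, adjusted p = 0.0336). The list median was −0.15, with −0.27 without WT replicate 1 and −0.05 without WT replicate 2. Ddit3, which encodes CHOP, had 17.4 and 28.9 FPKM in WT against 16.9 and 17.5 FPKM with the KO label, and Atf4 47.2 and 64.8 against 45.8 and 45.4 FPKM; WT replicate 2 was the highest for both (adjusted p = 0.312 and 0.305). Calls in this list numbered 7 without WT replicate 1 and 0 without WT replicate 2 or KO-labelled replicate 1 or 2. Of 20 cytosolic aminoacyl-tRNA synthetases 0 were called, with 9 below and 1 above WT (median −0.17, and 0.00 without WT replicate 2). Apart from these lists, Lars2, the mitochondrial leucyl-tRNA synthetase, rose from 17.8 and 21.4 FPKM to 42.6 and 35.5 (0.96, adjusted p = 0.0144).

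**Figure D2:**
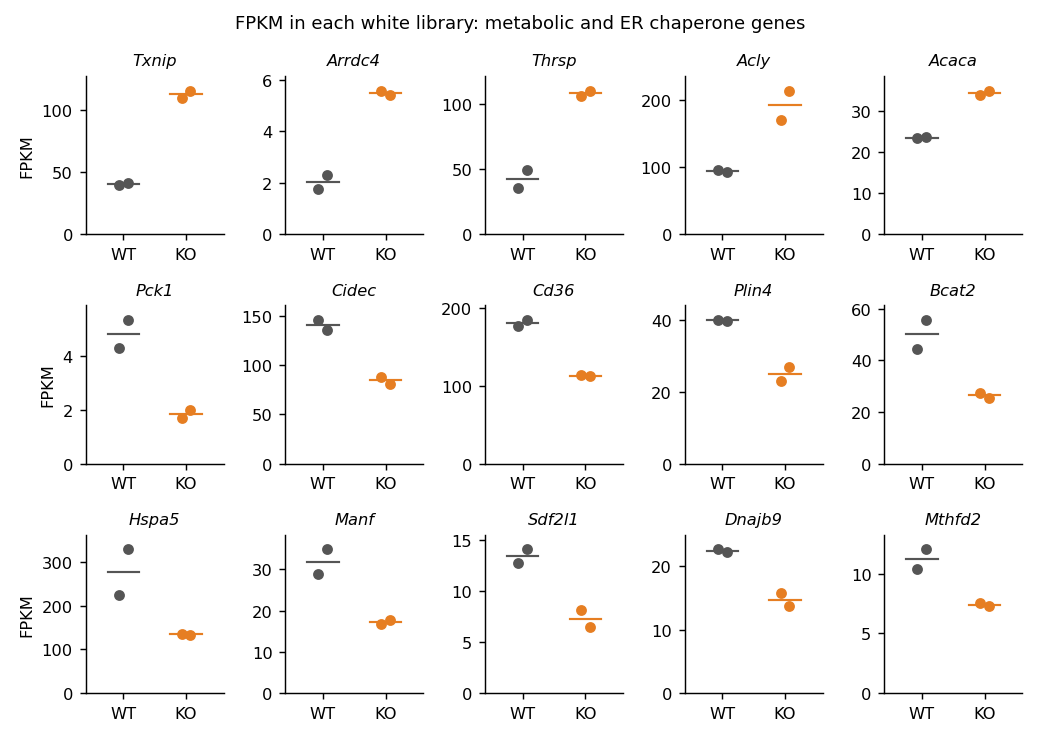
FPKM of 15 genes in each white library, 2 points per genotype, with a bar at the mean; each panel starts at 0 and has its own scale. In all 15 panels the points of the genotypes do not overlap, with Txnip, Arrdc4, Thrsp, Acly and Acaca higher in the KO-labelled libraries and the other 10 genes lower.

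Of 34 tested macrophage identity genes, 12 were called higher and 0 lower, and both KO-labelled values lay above both WT values in 33. The remaining gene, the scavenger receptor Marco, lay below, at 1.35 and 1.19 against 0.687 and 0.49 FPKM. The median difference was 0.68, against 0.03 over all entries and 0.04 for the same genes in beige, and the summed FPKM of the list was 693 and 617 in WT and 913 and 973 in KO-labelled libraries. In bulk libraries, more cells of a type and more RNA per cell cannot be told apart. Calls in this list numbered 2 with the 4 white libraries alone, 18 without WT replicate 1, 1 without WT replicate 2 and 0 without KO-labelled replicate 1 or 2. The median with 1 library left out lay between 0.48 and 0.76.

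The called genes cover lineage receptors, signalling and lysosomal functions. Csf1r, the receptor for the macrophage growth factor CSF1, stood at 13.5 and 11.1 FPKM in WT against 19.9 and 21.4 FPKM with the KO label (0.71, adjusted p = 0.0281). Ptprc, the leukocyte phosphatase CD45, had 2.46 and 2.67 against 4.9 and 4.67 FPKM (0.70, adjusted p = 0.021). Coro1a, a leukocyte actin regulator, had the largest difference of the list, at 3.48 and 3.46 against 9.68 and 9.24 FPKM (1.23, adjusted p = 0.00744). Fcer1g, the signalling chain of Fc receptors, rose from 23.2 and 20.3 FPKM to 37.3 and 37 (0.75). Cd14, the co-receptor for lipopolysaccharide, and Msr1, a scavenger receptor, rose by 0.79 and 0.67. The differences of Adgre1 (which encodes F4/80), C1qb, Cd52, Laptm5 and Mpeg1 ran from 0.57 to 0.90. The most abundant marker, Lyz2, which encodes lysozyme, was not called, at 268 and 287 against 317 and 337 FPKM (0.24, adjusted p = 0.479).

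Genes of resident and alternatively activated macrophages were divided: of 15 tested, 4 were called higher and 1 lower (median 0.24, and 0.10 without WT replicate 2). The lectins Mgl2 and Mrc1 rose from 1.32 and 0.635 FPKM to 4.51 and 6.44 (1.72, adjusted p = 0.00744) and from 43.2 and 34.9 FPKM to 67.4 and 71 (0.82, adjusted p = 0.0301). Stab1, a scavenger receptor, rose by 0.69, and the platelet factor chemokine Pf4 by 0.58. The lectin Cd209f fell from 5.65 and 4.06 FPKM to 1.18 and 1.59 (−1.29, adjusted p = 0.00744). The higher calls numbered 1 with the 4 white libraries alone, 3 without WT replicate 1, 1 without WT replicate 2, 1 without KO-labelled replicate 1 and 0 without KO-labelled replicate 2. Of 19 tested genes of lipid-associated and inflammatory macrophages 1, Slamf9, was called higher and 0 lower (median 0.07, and 0.04 without KO-labelled replicate 2). Cd72, a lectin receptor of B cells and other leukocytes, was listed at 0 throughout WT and had 3.55 and 5.71 FPKM with the KO label.

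Secreted immune products and their receptors gave a smaller number of calls. Ccl12, a ligand of the monocyte receptor CCR2, rose from 5.54 and 5.75 FPKM to 19.9 and 20.3 (1.67, SE 0.11, adjusted p = 0.000431), and Cxcl9, an interferon-gamma-induced ligand of CXCR3, from 1.72 and 2.33 FPKM to 5.03 and 5.81 (1.09, adjusted p = 0.0285). With Pf4 they were the 3 calls among 18 tested chemokines (median 0.18, and 0.08 without KO-labelled replicate 2), which numbered 1 whichever white library was left out. Of 19 complement genes 3 were called higher and 0 lower, with 14 above WT (median 0.40): C1qb, a chain of the initiating C1q complex, at 66.7 and 52.8 against 89.5 and 113 FPKM, C5ar1, the C5a receptor, with a log2 difference of 0.81, and Cfp, properdin, at 11.8 and 10.6 against 18.1 and 19.9 FPKM. C1qb is also among the macrophage calls above. The summed FPKM of the complement list did not rise with the median, at 1240 and 1330 in WT and 1114 and 1262 in KO-labelled libraries. Complement calls numbered 0 with the 4 white libraries alone, 6 without WT replicate 1 and 0 without WT replicate 2 or KO-labelled replicate 1 or 2. Adipsin (Cfd), the complement protease made by adipocytes, lay below WT without a call, at 647 and 841 against 422 and 489.8 FPKM (adjusted p = 0.0677). Of 31 cytokines and their receptors 0 were called, with 22 above WT (median 0.20).

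Lcn2, which encodes lipocalin 2, an iron-siderophore binding protein secreted by adipocytes and myeloid cells, was the largest rise of all called entries. Its level was 3.31 and 4.06 FPKM in WT against 21.2 and 20.7 FPKM with the KO label (2.23, SE 0.26, adjusted p = 0.00758). Of 16 tested acute phase and inflammatory secreted proteins it was the 1 called higher and Orm1 the 1 called lower, with 3 above and 7 below WT (median −0.10, and 0.05 without KO-labelled replicate 1). Orm1, orosomucoid, fell from 51.8 and 51.9 FPKM to 35 and 34.7 (−0.56, adjusted p = 0.0265), and outside that list Lrg1, a leucine-rich glycoprotein, from 35.3 and 30.7 FPKM to 14.9 and 20.4 (−0.88, adjusted p = 0.0392). Ch25h, cholesterol 25-hydroxylase, an interferon-responsive enzyme, rose from 2.07 and 1.21 FPKM to 5.37 and 6.04 (1.36, adjusted p = 0.011).

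Of 57 tested interferon-stimulated genes, 8 were called higher and 0 lower, with 47 above WT and 0 below. The median was 0.54, and the same genes had a median of 0.50 in beige. Ifit1, an antiviral RNA-binding protein, stood at 4.41 and 5.97 FPKM in WT against 9.29 and 13.5 FPKM with the KO label (0.99, adjusted p = 0.0427), and Ifit3, its partner, at 2.35 and 3.91 against 7.05 and 9.95 FPKM (1.21, adjusted p = 0.0285). In each genotype replicate 2 was the higher for both. The GTPases Igtp and Iigp1, which act on vacuoles of intracellular pathogens, rose by 0.86 and 0.83, the mitochondrial kinase Cmpk2 by 0.94, the nuclear body protein Sp100 by 0.82, the DNA exonuclease Trex1 by 0.83 and Slfn2 by 0.78. Cmpk2, at 0.58 and 0.861 FPKM in WT against 1.91 and 2.72 FPKM, passed the filter through the KO-labelled libraries alone. Irf7, at 3.31 and 6.16 against 7.24 and 12.7 FPKM, and Isg15, at 7.92 and 11.7 against 14 and 23.6 FPKM, lay above WT without a call (adjusted p = 0.121 and 0.122). The macrophage sum moved in the same direction in these libraries, and its part in this list was not tested. Interferon calls numbered 15 without small RNA genes, 0 with the 4 white libraries alone, 0 without WT replicate 1, 1 without WT replicate 2 and 0 without KO-labelled replicate 1 or 2. The median with 1 library left out lay between 0.35 and 0.70. Of 19 genes of MHC class I and antigen processing 0 were called (median 0.13, and −0.07 without WT replicate 1).

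The promoters of Ifit1 and Ifit3 carry the interferon-stimulated response element, GAAA repeated after 2 further bases, which was searched on both strands and is marked in capitals. Each has 2 matches, on the minus strand, and none overlaps another motif searched. Of 45 tested members of the list with a RefSeq promoter 22 (48.9%) hold it, as do 3 of the 7 called ones (Ifit1, Ifit3 and Igtp), against 3.68% of all tested genes. The windows are the 250 bases before the start, chr19:34640639-34640888 for Ifit1 and chr19:34583279-34583528 for Ifit3, both on the plus strand of GRCm38.p6.
Ifit1: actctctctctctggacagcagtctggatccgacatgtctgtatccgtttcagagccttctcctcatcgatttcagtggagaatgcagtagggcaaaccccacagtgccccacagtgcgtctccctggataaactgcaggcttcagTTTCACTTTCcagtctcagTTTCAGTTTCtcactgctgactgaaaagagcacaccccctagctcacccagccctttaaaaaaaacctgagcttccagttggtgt
Ifit3: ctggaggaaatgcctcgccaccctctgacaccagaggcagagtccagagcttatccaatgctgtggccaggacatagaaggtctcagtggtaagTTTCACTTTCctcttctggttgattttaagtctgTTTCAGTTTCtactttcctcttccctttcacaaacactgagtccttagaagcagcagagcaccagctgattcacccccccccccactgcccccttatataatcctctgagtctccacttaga

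Of 23 tested mitotic genes, 4 were called higher and 0 lower, and 22 lay above WT and 0 below (median 0.36, and −0.02 in beige). Mki67, the Ki-67 protein of cycling cells, stood at 1.55 and 1.31 FPKM in WT against 2.91 and 2.77 FPKM with the KO label (0.66, adjusted p = 0.0235). Cenpa, the centromeric histone H3, had 1.16 and 1.06 against 2.48 and 2.58 FPKM (0.74, adjusted p = 0.0147). The spindle checkpoint kinase Bub1b and the spindle midzone protein Prc1 rose by 0.58 and 0.61. Bub1b, at 0.524 and 0.567 FPKM in WT against 1.36 and 1.25 FPKM, passed the filter through the KO-labelled libraries alone. Such entry favours rises in a list of scarce genes. The list median was 0.21 with a filter of 5 FPKM in 2 white libraries and 0.33 with no filter. Levels were low in both genotypes, and 2 further members were listed at 0 in both WT libraries: Cdc20, an activator of the anaphase-promoting complex, with 1.8 and 2.39 FPKM in the KO-labelled libraries, and the kinesin Kif20a, with 1.47 and 1.74 FPKM. Mitotic calls numbered 0 with the 4 white libraries alone, 4 without WT replicate 1 and 0 without WT replicate 2 or KO-labelled replicate 1 or 2, and the median with 1 library left out lay between 0.30 and 0.40.

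Genes of the S phase gave a divided picture. Of 50 tested replication-dependent histones, whose copies may share reads and are uncertain one by one, 8 were called higher and 0 lower, with 34 above WT and 0 below (median 0.59, and 0.02 in beige). Hist1h3i went from 2.92 and 2.32 FPKM to 8.32 and 7.44 (1.30, adjusted p = 0.00744) and Hist1h3h from 2.68 and 2.82 FPKM to 7.26 and 6.49 (1.07, adjusted p = 0.0101). Histone calls numbered 4 with the 4 white libraries alone, 9 without WT replicate 1, 0 without WT replicate 2, 2 without KO-labelled replicate 1 and 0 without KO-labelled replicate 2. Of 33 tested genes of DNA replication and the G1/S transition, 1 was called: Ccnd1, cyclin D1, which opens G1, rose from 11.8 and 9.8 FPKM to 20.1 and 20.5 (0.85, adjusted p = 0.011). In that list 17 lay above and 4 below WT (median 0.16), and Gins2, a subunit of the replicative helicase complex, was listed at 0 in both KO-labelled libraries against 3.17 and 2.79 FPKM in WT. The p53 targets and cell cycle inhibitors had 0 calls among 26 tested (median −0.13, and 0.00 without WT replicate 2).

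Mki67 is shown for the mitotic list because its window holds 2 matches, in capitals, to the cell cycle genes homology region, TTTGAA (chr7:135716380-135716629, minus strand of GRCm38.p6). Of 19 tested mitotic genes with a RefSeq promoter 15 (78.9%) hold this short motif, the 4 called ones among them, against 13.3% of all tested genes. Over all called genes with a promoter, the motif was found in 18.3% of those higher and 24.1% of those lower. The 2 matches of Mki67 overlap no other motif searched.
Mki67: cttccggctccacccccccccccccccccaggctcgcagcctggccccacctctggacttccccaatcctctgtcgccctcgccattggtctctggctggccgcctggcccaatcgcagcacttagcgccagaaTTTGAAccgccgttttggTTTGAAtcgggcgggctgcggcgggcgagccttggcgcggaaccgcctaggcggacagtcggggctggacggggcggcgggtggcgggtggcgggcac

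**Figure D3:**
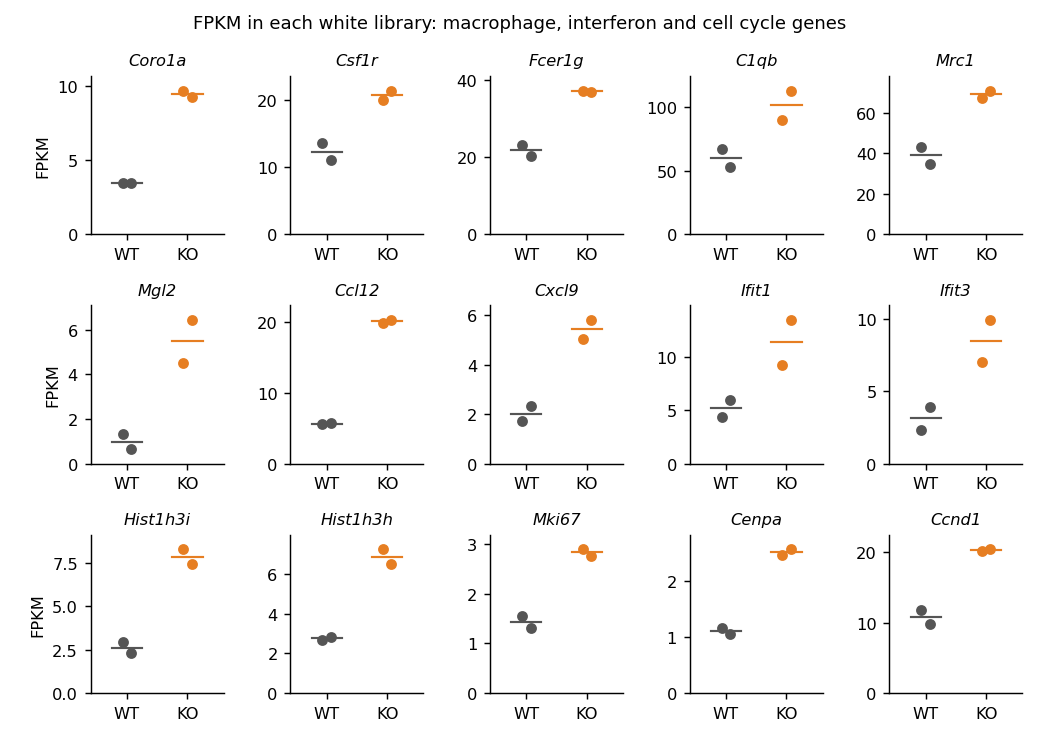
FPKM of 15 genes in each white library, 2 points per genotype, with a bar at the mean; each panel starts at 0 and has its own scale. All 15 genes are higher in both KO-labelled libraries, with the replicates close for Coro1a, Fcer1g and Ccl12 and farther apart for Ifit1, Ifit3 and Mgl2.

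Matrix and progenitor genes are set beside all entries tested, of which 2.19% were called, 32.4% lay above and 21.3% below WT. Of 27 preadipocyte and stromal progenitor markers 2 were called higher, Ccnd1 and Pi16, a marker of early fibroblast progenitors, which rose from 6.19 and 6.51 FPKM to 9.75 and 12.3 (0.70, adjusted p = 0.0281); 17 lay above and 1 below WT (median 0.20). Of 25 collagens 1, Col14a1, a fibril-associated collagen, was called, rising from 26.6 and 31 FPKM to 48.4 and 49 (0.74, adjusted p = 0.0147), with a list median of 0.02 that changed sign with the setting. Of 56 other matrix proteins 36 lay above and 6 below WT (median 0.20). The 1 call among them was a fall: Mgp, matrix Gla protein, an inhibitor of calcification, went from 60.4 and 52.4 FPKM to 29.8 and 30.5 (−0.88, adjusted p = 0.00744). The 39 remodelling enzymes and inhibitors had 0 calls (median 0.18). Mcam, an adhesion molecule of pericytes and endothelium, fell from 8.31 and 9.46 FPKM to 3.88 and 4.45 (−0.94, adjusted p = 0.00744), the 1 call among 14 contractile and pericyte genes, while of 7 tested endothelial markers 0 were called.

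**Figure D4:**
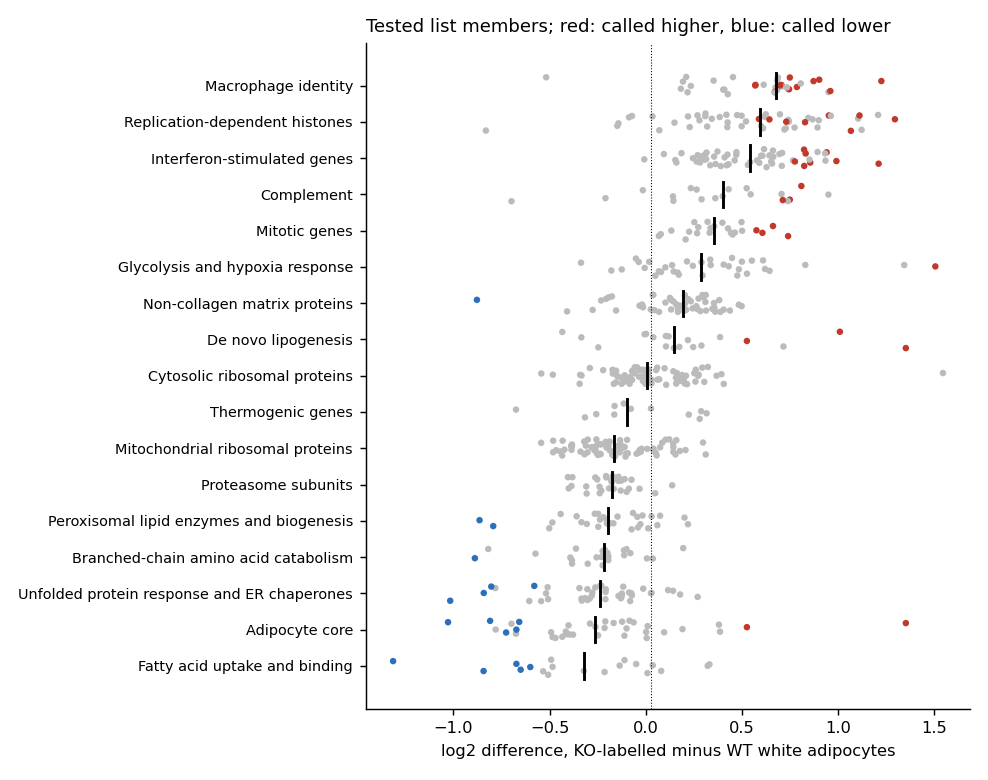
Each point is the log2 difference, KO-labelled minus WT, of 1 tested member of a gene list; black bars are list medians and the dotted line is the median of all entries, 0.03. Medians run from 0.68 for macrophage identity to −0.32 for fatty acid uptake and binding, and grey points, members without a call, are the majority in each of the 17 lists.

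The lowest called entries were Mup6 and the predicted gene Gm2083. Mup6, a major urinary protein, stood at 3.07 and 2.92 FPKM in WT against 0.182 and 0.252 FPKM with the KO label (−1.71, SE 0.10, adjusted p = 0.000431). Mup genes are near-identical copies, so how reads were divided among them is uncertain. Gsta3, a glutathione transferase, fell from 5.66 and 5.43 FPKM to 2.42 and 2.43 (−0.93, adjusted p = 0.00744), and Reg1, a secreted lectin, from 3.93 and 3.13 FPKM to 1.4 and 1.11 (adjusted p = 0.0101). Among abundant genes the rises included Gpx3, the secreted glutathione peroxidase, from 176 and 180.2 FPKM to 249 and 253 (0.49, adjusted p = 0.0438), and Man2a1, a Golgi mannosidase, from 29.4 and 31.1 FPKM to 51.2 and 52.4 (0.76, adjusted p = 0.0138). The housekeeping list had 0 calls among 15, with Actb at 907 and 834 against 820.0 and 841 FPKM and Tbp at 2.86 and 3.36 against 3.07 and 2.9 FPKM.

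Of the 14 entries listed at 0 in a whole genotype, 7 were at 0 in the KO-labelled libraries and 7 in WT. A listed 0 can be a failed estimate, so no fold is given. Slc7a10, a transporter of neutral amino acids found on white adipocytes and a member of the adipocyte core list, stood at 8.19 and 6.11 FPKM in WT and was listed at 0 in both KO-labelled libraries. Znhit1, part of a complex that exchanges histone variants, went the same way from 10.2 and 12.9 FPKM, and Fdx1l, a mitochondrial ferredoxin, from 6.28 and 5.31 FPKM. In the other direction, besides Cd72, Cdc20 and Kif20a, Slc15a3, a lysosomal peptide transporter of immune cells, was at 0 in WT and at 1.55 and 1.65 FPKM in the KO-labelled libraries.

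Most white differences were not matched by a call in beige. The KO-labelled against WT contrast of the beige cultures had 15 calls in the same fit (0.137%), and 6 entries were called in both: B3galt2, Ccl12, Cntfr, Lars2, Mgp and Sbsn. Of the 239 white calls, 144 had the same sign in beige (97 of the 162 higher and 47 of the 77 lower). The same share over all entries tested is not given here, so this count has no background beside it. A test of the difference between the contrasts called 21 entries (0.192%), of which 14 were also called in white. Ccl12 stood at 0.894 and 0.888 FPKM in WT beige and at 0 and 0.191 FPKM in KO-labelled beige cultures, opposite in direction to the white cultures (white minus beige 2.46, interaction adjusted p = 0.000197). Lars2 was likewise opposite, at 54.7 and 48 in WT beige and 14.5 and 15.6 FPKM in KO-labelled beige cultures (2.66, interaction adjusted p = 0.000416). Txnip was high in all beige cultures, at 90.7 and 83.2 and 92.3 and 94.5 FPKM, with no call between genotypes there (1.35, interaction adjusted p = 0.00549). Acly, at 61.9 and 54.2 against 49.1 and 46.8 FPKM in beige, also had an interaction call (1.28, adjusted p = 0.0423). Many of the genes called higher were scarce in beige: their median was 1.08 FPKM in WT beige and 3.92 FPKM in WT white, while those called lower had medians of 11.3 FPKM in both. Genes that are scarce in beige can vary little there on this log2 scale. That can lower the spread pooled over white and beige, and with it the SEs and p-values in white. The part of this in the calls was not tested. The interaction calls numbered 10 with a pseudocount of 0.1, 46 without WT replicate 1 and 9 without KO-labelled replicate 2 of the white cultures.

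**Figure D5:**
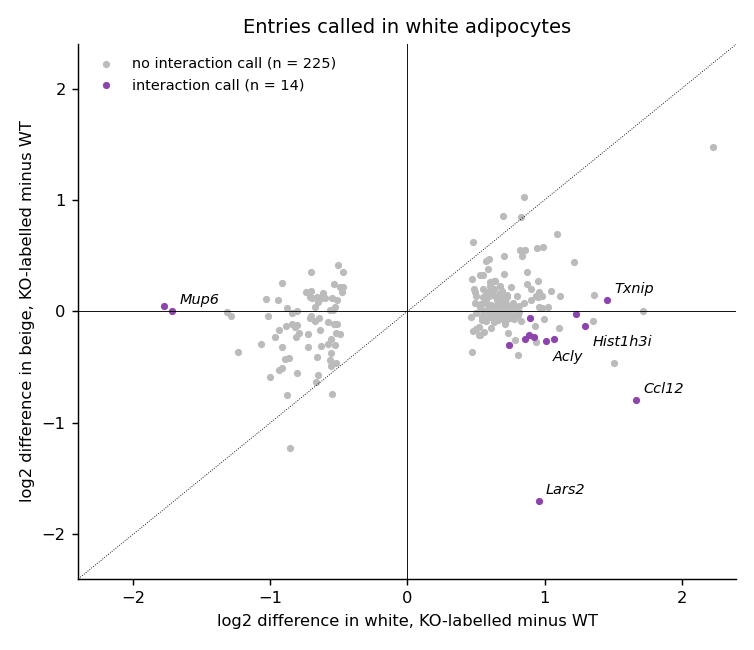
Each point is 1 of the 239 entries called in white cultures, placed by its KO-labelled minus WT log2 difference in white (x axis) and in beige cultures (y axis); the dotted line marks equal differences. The 14 entries with an interaction call are purple, with Ccl12 and Lars2 above 0 in white and below 0 in beige.

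The calls were spread over the genome. Within 5 megabases of Atf7, 2 of 86 tested entries were called (2.33%), and within 20 megabases 5 of 159 (3.14%), against 2.19% of all entries. By chromosome the share ran from 1.18% on chromosome 16 to 3.82% on chromosome 1, among chromosomes with over 100 entries tested. The full cyclic AMP response element, TGACGTCA, to which ATF7 binds, was found in the RefSeq promoters (250 bases before to 50 after the start, both strands) of 3 of 109 genes called higher (2.75%: Ch25h, Mturn and Scg2) and 1 of 54 called lower (1.85%: Mcam), against 3.63% of 8323 tested genes with a promoter. The AP-1 motif was found in 6 of the 109 (5.50%) and 10 of the 54 (18.5%), Cidec, Cav2 and Hspa5 among them, against 6.02% of tested genes. Other motifs were searched as well, and their shares among all called genes are given only for some.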

How the data were processed

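RNA sequencing values of 12 libraries were at hand, of which the 8 of primary inguinal cultures (4 white, 4 beige) were fitted. Labels gave the groups. Per the labels' protocols, total RNA was depleted of ribosomal RNA, made into directional libraries and read from both ends. The authors deposited 1 FPKM value per gene and locus, on mm10 (GRCm38) per the submitters' processing notes. Which aligner, quantifier and annotation made them, and whether strand was used, is not given in the sources used here, so overlapping and antisense genes are uncertain. With no counts among the values used, the depth is unknown.

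Entries with at least 1 FPKM in 2 or more white libraries, and no white genotype at exactly 0 in both libraries, were tested with limma 3.58.1 under R 4.3.3 (trended eBayes) on log2(FPKM + 1), with 1 coefficient per group over the 8 libraries, 4 residual degrees of freedom and a prior of 5.08. Contrasts were KO-labelled against WT in white and its difference from the same contrast in beige. Tests were two-sided with Benjamini-Hochberg adjusted p under 0.05. Settings tried were 2 other pseudocounts, no filter and a filter of 5 FPKM, quantile normalization, median centring, leaving out small RNA genes, keeping entries at 0, no trend, the white libraries alone, a replicate block and leaving out each white library.

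The 64 gene lists and the comparison were chosen with earlier results of these data known. Of 2000 list members 1994 were matched. Names follow a rule: fixed control genes, the 20 largest rises and falls, the 15 most abundant calls in each direction, up to 8 called members of a list (2 of lowest p where fewer were called), and interaction calls. Atf4, Cfd, Ddit3, Elovl6, Fasn, Hsp90b1, Irf7, Isg15, Lpl, Lyz2, Marco, Mlxipl, Ppargc1a, Scd1, Xbp1 and the genes of the closing observations were named after their values were seen. Promoters and motifs were read from RefSeq (GRCm38.p6), which held a promoter for 8323 tested genes. A motif match is a description, not a binding site.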

Additional observations from a re-analysis of the deposited data

Results flagged for a closer look

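The difference between genotypes in white cultures was tested against that in beige cultures, and 21 entries passed (adjusted p under 0.05). Among the named genes, the white minus beige difference on the log2 scale was 2.66 for Lars2, 2.46 for Ccl12, 1.43 for Hist1h3i, 1.35 for Txnip, 1.31 for Hist1h3h, 1.28 for Acly and 1.25 for Coro1a. It was 1.15 for Rcan2, an inhibitor of calcineurin, 1.10 for Ccnd1, 1.04 for Cenpa and 0.946 for Adam8, a membrane metalloprotease, and −1.71 for Mup6. Adam8 stood at 6.26 and 5.78 FPKM in WT white and 12.2 and 11.8 FPKM in KO-labelled white cultures, against 1.3 and 1.38 and 1.24 and 1.27 FPKM in beige. Mup6 was listed at 0 in all 4 beige libraries, so its difference is that of the white cultures alone. Its beige values added no spread to the pooled estimate behind its SE. Lars2 and Ccl12 were called in both contrasts with opposite signs. Slc40a1, the iron exporter ferroportin, had 7.53 and 7.5 against 15.3 and 14.2 FPKM in white and 1.57 and 1.12 against 1.09 and 0.945 FPKM in beige (1.10). The scavenger receptor Scara5 passed the test of the difference with no call in white, at 12.4 and 14.3 against 19.6 and 18 FPKM. Of the others without a white call, Ccdc66, Gp1bb, Lrrc24, Lrsam1, Rnf146 and Wdr77 were each listed at 0 in both libraries of one beige genotype, which can be a failed estimate.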

How the results depend on the processing

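No called gene named by the rule above changed sign under any setting run, but the number of calls moved. The sign was mostly fixed in advance, since the genotypes did not overlap in any called entry. Leaving out 1 white library or changing the pseudocount could therefore not reverse it. Only settings that rescale the libraries could have done so. Entries called higher, 162 in the report, numbered 21 with a pseudocount of 0.1, 103 with 0.5, 268 with quantile normalization, 252 without small RNA genes, 32 with the 4 white libraries alone and 2 to 254 with 1 library left out. Entries called lower, 77 in the report, numbered 19 with a pseudocount of 0.1, 260 with quantile normalization, 135 without small RNA genes, 16 with the white libraries alone and 10 to 144 with 1 library left out. Differences between white and beige, 21 in the report, numbered 10 with a pseudocount of 0.1, 10 with no filter, 32 with quantile normalization, 38 with entries at 0 kept and 9 to 46 with 1 library left out. The cause was not tested. With 2 libraries per genotype, leaving 1 out assumes that the lone library varies like the other groups. The labels give replicates 1 and 2 but no shared animal or day, and the deviations of same-numbered white libraries correlated at 0.172; a fit with the replicate number as a block called 200 entries higher, 99 lower and 23 for the difference, and 18 in place of 8 interferon-stimulated genes. With a pseudocount of 0.1 the calls numbered 1 in place of 12 for macrophage identity, 1 in place of 8 for interferon-stimulated genes, 3 in place of 8 for histones, 1 in place of 4 both for mitotic genes and for the unfolded protein response, and 0 in place of 5 for fatty acid uptake. Without counts, no limit that depth sets could be computed.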

Other observations

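Several called entries outside the lists encode proteins known from leukocytes; they were picked after their values were seen, and no count or test stands behind the grouping. Itgb2, the beta-2 integrin chain, stood at 6.7 and 5.26 FPKM in WT against 9.33 and 9.77 FPKM with the KO label (0.60), and Fermt3, the kindlin that activates integrins in blood cells, at 2.97 and 2.73 against 5.68 and 5.68 FPKM (0.80). Lcp1, the leukocyte actin bundler plastin, rose by 0.94, the Rac exchange factor Dock2 by 0.74 and Nckap1l by 0.72. The tyrosine kinase Syk and the phosphatase Ptpn6 rose by 0.60 and 0.87, and Inpp5d, which encodes the lipid phosphatase SHIP1, by 0.54. Innate sensors were called too: Tlr7, a receptor for single-stranded RNA, had 1.82 and 1.41 against 2.84 and 3.06 FPKM (0.60), its chaperone Unc93b1 14.5 and 13.3 against 19.7 and 21.4 FPKM (0.53) and Nlrp3, an inflammasome sensor, 0.649 and 0.45 against 1.28 and 1.42 FPKM (0.60). Nlrp3 passed the filter of 1 FPKM through the KO-labelled libraries alone. In eicosanoid synthesis, Alox5ap, the activator of 5-lipoxygenase, rose from 11.5 and 7.71 FPKM to 19.6 and 19.1 (0.96) and the leukotriene receptor Cysltr1 by 0.78. These genes share their direction with the macrophage marker sum, and the part of that sum in them was not tested. The grouping holds rises only, and Cd5l, a macrophage product given below, was called lower.

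Among entries called lower were the integrin chains Itga6, at 12.4 and 12.5 against 7.8 and 7.5 FPKM (−0.64), and Itga7, at 6.92 and 6.3 against 3.78 and 3.95 FPKM (−0.65), both laminin receptors. Atp2b4, a calcium pump of the plasma membrane, was called lower with a difference of −0.67. Slc5a3, the sodium-coupled transporter of myo-inositol, fell from 19.3 and 19.7 FPKM to 10.5 and 10.8 (−0.82). Cd5l, a secreted protein made by macrophages, was called lower, at 2.39 and 2.07 against 0.899 and 0.787 FPKM (−0.81), as was Cd1d1, a lipid antigen presenter, at 24.3 and 29.7 against 15.4 and 14.5 FPKM (−0.81).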
